A study of Mus musculus with 10 samples.

Results

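Mature miRNA entries were compared between mouse E14 embryonic stem cells (strain background 129/Ola) that lack both Ago1 and Ago2 (Ago12_KO, 2 libraries) and wild-type E14 cells (WT, 2 libraries), which is 4 of the 10 small RNA libraries of the series. All 4 came from cells kept on gelatine in serum with LIF, the cytokine that holds mouse embryonic stem cells undifferentiated. The labels tell the WT libraries apart by the codes P25 and P33 and number the Ago12_KO libraries, and nothing says that the latter came from separate clones or cultures, so the p-values below cover the spread between the libraries at hand, which may be technical. The deposited table counts reads for 1907 mature miRNA entries, of which 1090 had a count in WT or Ago12_KO. The other 6 libraries, from Dgcr8_KO, Drosha_KO and Dicer_KO cells of the same line, entered the fit for the estimate of spread and the filter on low counts. They appear as background where named.

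Argonaute proteins hold the mature miRNA. Dicer leaves a duplex of a 5p and a 3p strand, an Argonaute protein retains the guide strand and the other strand, the passenger, is discarded and degraded. The guide finds its mRNA targets mainly through its seed, bases 2 to 8, so miRNAs with the same seed form a family with overlapping targets. Mouse cells have 4 related Argonaute proteins, Ago1 to Ago4, and Ago2 cuts targets that pair fully with its guide. Neither the Argonaute mRNAs nor the proteins were measured here, so the genotype labels could not be checked on them.

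WT libraries held 2357868 and 1943868 counts and Ago12_KO libraries 349312 and 229407, a mean 7.43 times lower. A count was worth 0.424 and 0.514 CPM (its share of the library total times 1000000) in WT and 2.86 and 4.36 CPM in Ago12_KO. The Ago12_KO and Dgcr8_KO labels alone carry a code that reads like a date, so a batch and the genotype cannot be told apart between WT and Ago12_KO. The miR-290 to miR-295 cluster, which marks mouse embryonic stem cells, held 18.5% and 19.8% of the WT counts and 12.4% and 11.5% of the Ago12_KO counts. All values below are shares of the counted miRNA reads. A lower share can come from fewer copies per cell, from fewer cells that hold the miRNA or from a rise of other entries, and these cannot be told apart.

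Each hairpin with both arms listed and at least 10 WT counts was split into the arm with more WT counts, called major, and the other, called minor, which gave 348 hairpins. For miRNAs made from several gene copies, the names give an arm shared by the copies (miR-92a-3p) and copy-specific partners (miR-92a-1-5p), and these were kept as classes of their own, 29 and 61 entries. Guide strands here are major arms, entries with no arm in the name and entries whose partner arm is not listed. Minor arms are passenger strands. Of the shared and copy-specific arms, those with a higher WT share than their partners are guides and the rest passengers. Of the 26 mature sequences chosen for print, 26 matched the RefSeq table (GRCm38.p6 coordinates), and they are shown 5′ to 3′ with the seed in capitals.

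The 5 tested guides that share the seed of miR-92a are shown because together they were the largest seed family, and because the same seed went with opposite changes of its members.

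miR-92a-3p: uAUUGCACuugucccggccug
miR-25-3p: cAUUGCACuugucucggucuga
miR-92b-3p: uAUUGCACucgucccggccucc
miR-363-3p: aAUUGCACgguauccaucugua
miR-32-5p: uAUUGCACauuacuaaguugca

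miR-92a-3p comes from chr14:115044476-115044496 (plus strand, an exon of the Mir17hg lincRNA) and from chrX:52741854-52741874 (minus strand, no other annotated gene). miR-25-3p lies at chr5:138165332-138165353 on the minus strand in an exon of Mcm7, miR-92b-3p at chr3:89227126-89227147 and miR-363-3p at chrX:52741697-52741718, both on the minus strand in no other annotated gene, and miR-32-5p at chr4:56895272-56895293 on the minus strand in an intron of Tmem245.

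The miR-295 seed family, the leading family of the stem cell specific miR-290 to miR-295 cluster, and the miR-103 and miR-107 pair, whose members sit in introns of 3 related Pank genes, are shown as families whose share fell.

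miR-295-3p: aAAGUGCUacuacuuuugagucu
miR-294-3p: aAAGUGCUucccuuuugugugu
miR-302d-3p: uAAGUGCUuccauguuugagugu
miR-103-3p: aGCAGCAUuguacagggcuauga
miR-107-3p: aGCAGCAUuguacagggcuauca

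miR-295-3p (chr7:3220815-3220837) and miR-294-3p (chr7:3220691-3220712) lie on the plus strand, opposite an exon of Nlrp12, and miR-302d-3p (chr3:127545665-127545687, plus strand) lies opposite an intron of Larp7. miR-103-3p comes from introns of Pank2 (chr2:131288103-131288125, plus strand) and Pank3 (chr11:35782447-35782469, plus strand), and miR-107-3p from an intron of Pank1 (chr19:34820700-34820722, minus strand).

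The 4 miR-181 guides share a seed and differ in the rest of the strand.

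miR-181a-5p: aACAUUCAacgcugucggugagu
miR-181b-5p: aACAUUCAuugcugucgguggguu
miR-181c-5p: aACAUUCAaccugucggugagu
miR-181d-5p: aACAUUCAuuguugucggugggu

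miR-181c-5p (chr8:84178924-84178945) and miR-181d-5p (chr8:84178759-84178781) come from the minus strand in an intron of Nanos3. miR-181a-5p and miR-181b-5p come from paired copies on chromosome 1 (chr1:137966468-137966490 and chr1:137966650-137966673, plus strand, in an intron of the transcript Gm4258 and opposite an intron of the lincRNA Gm26936) and on chromosome 2 (chr2:38852741-38852763 and chr2:38853845-38853868, plus strand, opposite an intron of Nr6a1). The first miR-181b copy also lies in an exon of the lincRNA A430106G13Rik and the second opposite an exon of Gm44144.

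Both arms of 5 hairpins, and the passenger of miR-92a-1, are shown as examples of duplexes whose balance between strands changed. The major arm in WT is given before the minor arm.

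miR-21a-5p: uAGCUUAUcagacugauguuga
miR-21a-3p: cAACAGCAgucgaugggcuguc
miR-200a-3p: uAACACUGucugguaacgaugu
miR-200a-5p: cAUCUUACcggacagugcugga
miR-290a-5p: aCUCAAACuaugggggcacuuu
miR-290a-3p: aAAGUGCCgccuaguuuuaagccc
miR-18a-5p: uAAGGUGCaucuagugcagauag
miR-18a-3p: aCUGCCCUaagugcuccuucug
miR-293-5p: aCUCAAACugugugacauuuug
miR-293-3p: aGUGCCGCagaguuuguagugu
miR-92a-1-5p: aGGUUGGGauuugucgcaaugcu

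The miR-21a arms lie at chr11:86584120-86584141 (5p) and chr11:86584082-86584103 (3p) on the minus strand in an exon of Vmp1. The miR-200a arms lie on the minus strand in introns of Ttll10 and of the transcript Gm13648 (chr4:156054911-156054932 for 3p and chr4:156054949-156054970 for 5p). miR-290a has its 5p arm at chr7:3218639-3218660 and its 3p arm at chr7:3218674-3218697, and miR-293 its arms at chr7:3220356-3220377 and chr7:3220390-3220411, all on the plus strand, those of miR-293 opposite an exon of Nlrp12. The arms of miR-18a (chr14:115043867-115043889 and chr14:115043908-115043929) and miR-92a-1-5p (chr14:115044437-115044459) lie on the plus strand in an exon of Mir17hg.

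Over all entries, Ago12_KO cells had a smaller share on guide strands and a larger share on passenger strands. Guide strands held 94.9% and 94.6% of the counts in the WT libraries and 81.9% and 89.6% in the Ago12_KO libraries, and passenger strands 5.06% and 5.37% against 18.1% and 10.4%. The groups did not overlap, but the Ago12_KO libraries differed from each other, mostly through miR-92a-1-5p. Over 481 tested entries (edgeR's quasi-likelihood test, Benjamini-Hochberg adjusted p under 0.05), 138 entries were higher in Ago12_KO (28.7%) and 124 lower (25.8%), with a median log2 fold change of -0.02. TMM scaling moved that median to -0.66 and the calls to 109 higher and 179 lower, so the zero point of every fold change below depends on the scaling, while the balance between arms of a hairpin does not.

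The arms that were major in WT and the arms that were minor moved apart. They were named from the same WT libraries that form the baseline, so this difference is partly fixed by that choice. Of 260 tested major arms 47 were higher (18.1%) and 93 lower (35.8%), with a median log2 fold change of -0.60, or -0.39 with undetected entries at their bound of 3 counts over the group. Of 129 tested minor arms 54 were higher (41.9%) and 20 lower (15.5%), with a median of 0.68. Of 18 tested copy-specific arms 17 were higher (94.4%) and none lower, with a median of 2.81, while of 23 shared arms 4 were higher (17.4%) and 7 lower (30.4%). Entries with no arm in the name had 15 of 33 higher (45.5%) and 4 lower (12.1%). Under TMM the medians were -1.25 for major and 0.04 for minor arms, with 21.95% and 57.5% of the calls higher in place of 33.6% and 73.0%. Minor and copy-specific arms pass the filter only when they are abundant in some group, and one that passes through Ago12_KO had to be higher there. Of the tested arms, 19 of 129 minor and 6 of 18 copy-specific had under 10 counts in a WT library, and 9 and 6 of these were called higher. The filter's minimum of 10 counts refers to a library of median size, and the WT libraries were the deepest, so more counts were needed there. These numbers are therefore lower bounds for the arms that did not pass on their WT counts. Guides and seed families went through the same filter, and those low in WT carry the same limit. The counts and medians thus describe the tested entries, not all 348 minor and 61 copy-specific arms.

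**Figure D1:**
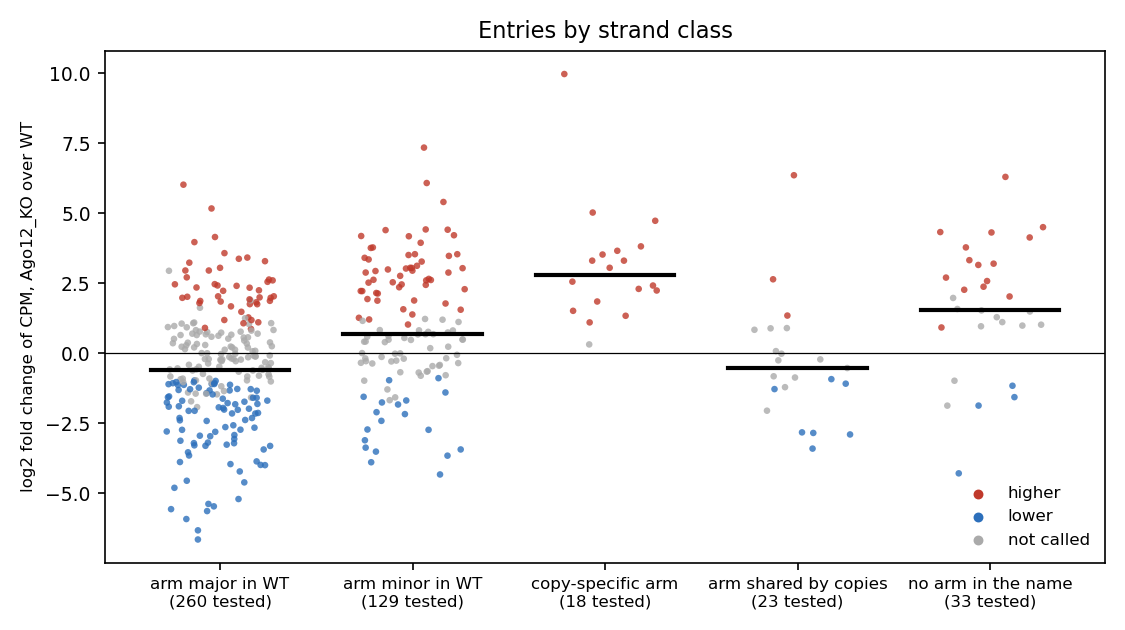
Each point is a tested entry, placed by its class on the x axis and by its log2 fold change of CPM (Ago12_KO over WT) on the y axis. Red points were called higher, blue lower and grey not called. Black bars are class medians over all tested entries (-0.60 for major arms, 0.68 for minor arms, 2.81 for copy-specific arms), and entries with 0 counts in 1 group (14 major arms, 5 minor arms, 1 shared arm and 3 entries with no arm) are not drawn.

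Passenger strands reached levels in Ago12_KO that they did not have in WT. miR-21a-3p, the passenger of miR-21a, stood at 115 and 102 CPM in WT and at 4898 and 4294 CPM in Ago12_KO (log2 fold change 5.402, SE 0.40, edgeR adjusted p = 3.63e-06). Its guide miR-21a-5p rose less, from 2575 and 2247 CPM to 8230 and 11512 CPM (2.03, edgeR adjusted p = 8.06e-04). miR-205-3p went from 24.6 and 14.4 CPM to 1248 and 1438 CPM (6.08, edgeR adjusted p = 2.64e-06), beside its guide miR-205-5p at 470.3 and 410.01 against 4125 and 4167 CPM (3.23). Both arms of these hairpins thus rose in both Ago12_KO libraries, the passenger by more. miR-1247-3p had the highest fold change of the 129 tested minor arms, from 1.70 and 3.09 CPM to 346 and 488 CPM (7.34, edgeR adjusted p = 1.02e-05). miR-26b-3p (4.19), miR-200a-5p (4.18), miR-182-3p (3.78) and miR-22-5p (3.54), the passengers of guides that are abundant in these cells or mark epithelial miRNA families, also rose, and each of these 4 calls held in every alternative run. The Dicer_KO libraries, of 45222 and 37476 counts in all, held 214 and 86 counts of miR-21a-3p and 50 and 26 of miR-182-3p. These shares are of the same order as in Ago12_KO. Lower shares than in Ago12_KO were those of miR-205-3p (10 and 14 counts), miR-1247-3p (10 and 5), miR-26b-3p (1 and 0) and miR-200a-5p (2 and 2).

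miR-92a-1-5p, the strand opposite miR-92a-3p in the miR-17-92 transcript, was the most abundant passenger in Ago12_KO. It took 1511 and 2453 CPM in WT and 103240 and 25784 CPM in Ago12_KO (5.02, SE 0.71, edgeR adjusted p = 1.62e-04). The level in Ago12_KO replicate 1 was far above that in replicate 2. The fold change was 3.70 without Ago12_KO replicate 1 and 5.70 without Ago12_KO replicate 2. The other copy, miR-92a-2-5p, went from 8.06 and 14.4 CPM to 198 and 82.8 CPM (3.66, edgeR adjusted p = 8.64e-04, and 2.88 without Ago12_KO replicate 1). The shared guide miR-92a-3p stood at 150940 and 161093 CPM in WT and at 173352 and 135467 CPM in Ago12_KO, values that overlap (-0.01, SE 0.20, edgeR adjusted p = 0.965), but TMM placed it at -0.66 (0.0304). Among other copy-specific arms, miR-16-1-3p rose from 25.02 and 32.4 CPM to 235 and 244 CPM (3.05, edgeR adjusted p = 9.48e-05). miR-181a-2-3p had 1 and 0 counts in WT and 178 and 89 counts in Ago12_KO, although the WT libraries were several times deeper.

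A few passengers fell. miR-293-3p went from 9743 and 10455 CPM to 2007 and 2698 CPM (-2.10, SE 0.28, edgeR adjusted p = 1.22e-04) while its partner miR-293-5p, at 10315 and 11137 against 9049 and 10802 CPM, was not called (-0.11, edgeR adjusted p = 0.751). TMM called miR-293-5p lower too (-0.76, 0.0338). miR-291a-3p and miR-292a-3p, minor arms of the same cluster, were not called (-0.26 and 0.42, edgeR adjusted p = 0.427 and 0.168), and TMM called miR-291a-3p lower (-0.91, 0.0188).

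The balance between the arms of a hairpin was tested directly, since it depends neither on library scaling nor on how much of the hairpin is made. The log2 ratio of major to minor arm (each with 0.5 counts added) was compared with limma in WT and Ago12_KO for the 121 hairpins whose arms each averaged 20 CPM or more. Here too the arms were named from the WT libraries of the comparison, which can add to a shift toward the minor arm. In 70 of them (57.9%) the balance moved toward the minor arm in Ago12_KO and in 9 (7.44%) toward the major arm, with a median change of -1.45. Some minor arms reached that mean only through Ago12_KO: in 21 of the 121 hairpins the minor arm averaged under 20 CPM in WT, and 19 of these were called toward it. Of the other 100, 51 were called toward the minor and 9 toward the major arm. The ratio was lower in both Ago12_KO libraries than in both WT libraries in 91 hairpins and higher in 18. The median hairpin had 11.03% of its counts on the minor arm in WT and 22.8% in Ago12_KO. Minor arms on the 5p side (59 hairpins, 32 called toward the minor arm) and on the 3p side (62 hairpins, 38 called) were both represented. With 2 libraries a group these calls lean on each WT library. Without WT replicate 1 the counts were 21 and 3, and without WT replicate 2 they were 8 and 1, while all 79 called hairpins kept their direction in every alternative run for single hairpins.

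**Figure D2:**
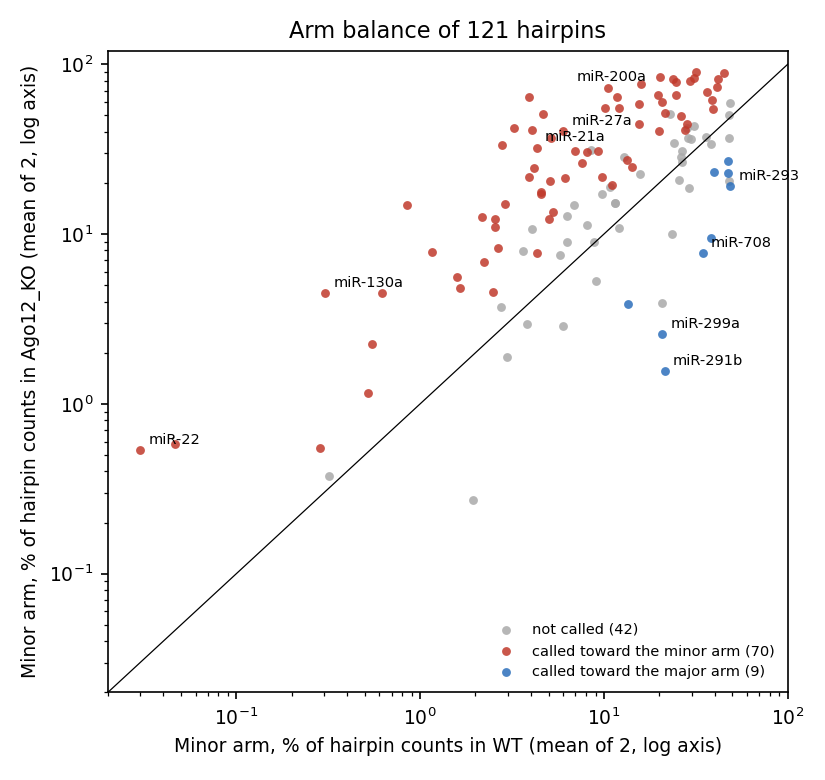
Each point is a hairpin, with the share of its counts on the minor arm in WT on the x axis and in Ago12_KO on the y axis (means of 2 libraries, log axes). The line marks equal shares. Red points (70) were called toward the minor arm, blue points (9) toward the major arm and grey points (42) were not called, and most points lie above the line.

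The calls that held in every alternative run for single hairpins covered 8 hairpins. miR-22, an abundant hairpin with almost no passenger in WT, had 0.0273% and 0.0326% of its counts on the minor arm in WT and 0.508% and 0.5604% in Ago12_KO (log2 change of the ratio -4.15, SE 0.16, limma adjusted p = 0.00138). miR-27a had 5.35% and 6.63% in WT and 39.9% and 40.8% in Ago12_KO (-3.41, SE 0.24, limma adjusted p = 0.00184). miR-205 had 4.97% and 3.39% against 23.2% and 25.7% (-2.90, limma adjusted p = 0.00235). In each of these hairpins the Ago12_KO libraries lay close together and far from WT. The minor arms of miR-22 and miR-205 averaged under 20 CPM in WT, however. Both hairpins are thus among the 21 that met the minimum only through Ago12_KO, of which 19 were called toward the minor arm. miR-130a (0.304% to 4.49%, means of 2), miR-30d (2.90% to 15.1%), miR-363 (4.53% to 17.3%) and miR-181c (15.4% to 44.2%) moved the same way. miR-708 was the reverse case: its minor arm, 5p, fell from 36.3% and 32.4% to 7.40% and 8.01% (2.64, SE 0.20, limma adjusted p = 0.00184), with miR-708-3p rising from 559 and 668 CPM to 3438 and 3352 CPM.

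In 20 hairpins the arm that was minor in WT outnumbered the major arm in both Ago12_KO libraries, and 19 of them were called. For miR-200a, an epithelial miRNA, the counts of 3p and 5p were 364 and 118 in WT replicate 1, 301 and 56 in WT replicate 2, 42 and 174 in Ago12_KO replicate 1 and 31 and 218 in Ago12_KO replicate 2. Its minor arm thus went from 24.5% and 15.7% to 80.6% and 87.6% (-4.43, SE 0.46, limma adjusted p = 0.00341). For miR-290a it went from 18.9% and 30.6% to 83.7% and 73.3% (-3.54, limma adjusted p = 0.00499). miR-290a-5p itself fell from 1213 and 1260 CPM to 309 and 318 CPM, and miR-290a-3p was called higher (1.56, edgeR adjusted p = 0.00864). TMM ended this call (0.0677), as did leaving out Ago12_KO replicate 1 (0.0801) or WT replicate 1 (0.102). For miR-18a the minor arm went from 20.5% and 20.7% to 56.3% and 62.9% (-2.49, limma adjusted p = 0.00447), with miR-18a-5p lower (430.05 and 449 against 80.2 and 56.7 CPM) and miR-18a-3p not called (-0.19, edgeR adjusted p = 0.66). miR-19a had the largest change of all 121, from 3.50% and 4.32% to 70.8% and 57.1% on the minor arm (-5.44, limma adjusted p = 0.00184). Of the calls in this paragraph those of miR-200a and miR-19a were lost only without WT replicate 2 (limma adjusted p = 0.0534 for both), and those of miR-290a and miR-18a also without WT replicate 1.

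Which strand moved differed between hairpins. Of the 70 called toward the minor arm, 27 had a minor arm called higher and a major arm not called, 12 a major arm called lower and a minor arm not called, and 7 both. In 8 hairpins both arms were called higher and in 6 both lower. miR-21a (4.26% and 4.36% on the minor arm in WT, 37.3% and 27.2% in Ago12_KO) belongs to the hairpins with both arms higher, and its arm call was lost without WT replicate 2 (limma adjusted p = 0.0534). Toward the major arm, miR-293 changed from 48.6% and 48.4% on 3p to 18.2% and 19.99% (2.00, SE 0.14, limma adjusted p = 0.00184, and 0.0534 without WT replicate 2). miR-291b and miR-299a also moved toward their major arms (4.06 and 3.42), calls lost without WT replicate 1 or WT replicate 2, and the abundant hairpins miR-291a and miR-292a were not called (-0.15 and -0.07, limma adjusted p = 0.396 and 0.709).

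Summed over all 348 hairpins, minor arms held 6.34% and 6.69% of paired counts in WT and 12.8% and 10.9% in Ago12_KO, a difference of 5.36 percentage points. The groups did not overlap, and the exact two-sided permutation test gave p = 0.333, the smallest that 2 against 2 libraries allow. With copy-specific arms counted with their shared arm the difference was 10.4 points, and 5.34 with the miR-92a hairpins left out of that sum. The same share was 5.001% and 5.02% in Dgcr8_KO, 12.2% and 10.4% in Drosha_KO, and 13.04% and 12.9% in Dicer_KO. Over the 26 tested hairpins with at least 10 counts in every library, the median share on the minor arm was 4.31% and 4.17% in WT, 16.4% and 14.5% in Ago12_KO, 10.1% and 8.58% in Dicer_KO, 3.24% and 3.10% in Dgcr8_KO and 2.93% and 2.68% in Drosha_KO. Against Dgcr8_KO, with arms named from WT and WT left out of the fit, 45 of 93 hairpins with at least 10 counts in each library (48.4%) were called toward the minor arm in Ago12_KO and 6 (6.45%) toward the major arm (limma, median -1.62).

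**Figure D3:**
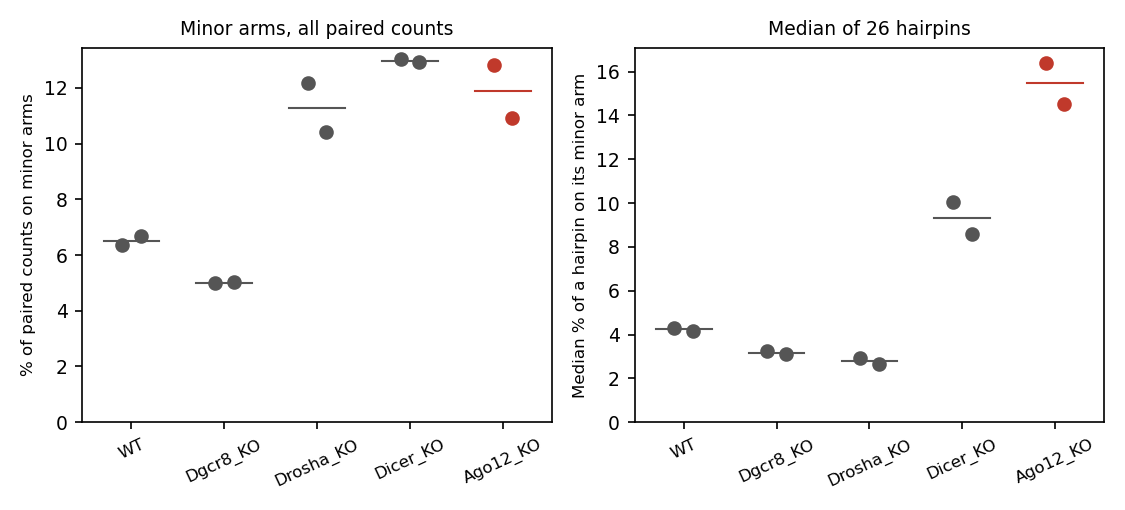
Left, percent of all paired counts on the arm that is minor in WT. Right, median percent on that arm over 26 hairpins with at least 10 counts in all 10 libraries. Points are libraries (Ago12_KO in red), lines are means of 2 libraries. WT and Dgcr8_KO lie low in both panels, Ago12_KO is high in both, and Drosha_KO is high only on the left. Dicer_KO is at or above Ago12_KO on the left and lies between WT and Ago12_KO on the right.

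Guides were then summed by seed. A family was called lost when its sum was lower in Ago12_KO by edgeR's quasi-likelihood test (adjusted p under 0.05), raised when it was higher, kept when it was not called and the 95% interval of its log2 fold change lay within -1 and 1, and undetermined otherwise. Of 268 families or lone entries without a RefSeq sequence, 81 were lost (30.2%), 55 raised (20.5%), 15 kept and 117 undetermined. The few kept families held the largest part of the counts, 42.3% and 42.6% in WT and 43.0% and 45.2% in Ago12_KO. Lost families went from 26.9% and 27.7% of the counts to 9.995% and 9.40%, and raised families from 4.10% and 3.63% to 16.9% and 21.2%. These shares restate the calls and carry no test. Much of the raised share lay in lone entries without a sequence, such as miR-6539: raised families with a known seed went from 2.85% and 2.52% to 8.36% and 10.95%. The number kept depends on the precision of the fit: it was 5 without WT replicate 1, 7 without WT replicate 2, 25 without either Drosha_KO library, 41 of 421 with no filter on low counts and 19 when WT and Ago12_KO alone were fitted. No family was lost in any setting and raised in another.

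The kept families were led by miR-92a. Its sum was 171771 and 183362 CPM in WT and 192212 and 155152 CPM in Ago12_KO (-0.03, 95% interval -0.42 to 0.35). miR-182-5p, the most abundant member of the cluster of miR-183, miR-96 and miR-182 and the lone tested guide with its seed, was kept at 125617 and 120284 against 115347 and 169123 CPM (0.21, interval -0.29 to 0.71). The family of miR-292a-5p, miR-293-5p and miR-290a-5p, the 5p guides of the stem cell cluster, was kept too (34529 and 35983 against 40122 and 40125 CPM, 0.19, interval -0.25 to 0.63). So were those of miR-26a and miR-26b (-0.20) and of miR-30a, miR-30e and miR-30c (0.28), which are widely expressed miRNAs, and the epithelial pair of miR-141 and miR-200a (0.20). None of these 6 families was called in any alternative.

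The largest lost family was that of miR-295-3p, the main product of its stem cell cluster, whose seed promotes the cell cycle of embryonic stem cells. Its sum went from 110126 and 117928 CPM to 48507 and 38944 CPM (-1.38, SE 0.23, edgeR adjusted p = 7.92e-04). All libraries of Ago12_KO lay below those of WT. The sum covers guides only, so no passenger of the cluster enters it, whatever its seed. Of the 7 tested passengers 1 was higher and 2 lower, and miR-291a-3p was among those not called. miR-295-3p itself changed by -1.42 (edgeR adjusted p = 4.76e-04). miR-294-3p went from 11797 and 13139 to 6338 and 5078 CPM (-1.13, edgeR adjusted p = 0.0117), a call lost without Ago12_KO replicate 2 (0.0706) or WT replicate 2 (0.0591). miR-302d-3p, which shares the seed but belongs to the miR-302 cluster, rose from 13.6 and 20.6 to 94.5 and 87.2 CPM (2.41, edgeR adjusted p = 0.00125). It passed the filter on low counts only through Ago12_KO, so it was tested only because it was high there. Among all 14 tested entries from that locus, miR-290 to miR-295, 5 were lower and 1 higher (TMM gave 9 and 0, leaving out Ago12_KO replicate 2 gave 4 and 2). Of its 7 tested guides, miR-295-3p, miR-294-3p and miR-290a-5p were lower, and miR-291a-5p, miR-291b-5p, miR-292a-5p and miR-293-5p were not called.

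miR-183-5p, from the same transcript as the kept miR-182-5p, was lost: it went from 21716 and 19682 CPM to 6227 and 7554 CPM (-1.59, SE 0.26, edgeR adjusted p = 7.80e-04). The families of miR-27b and miR-27a (-1.22, edgeR adjusted p = 0.00303), of miR-130a, miR-130b and miR-301a (-1.35, edgeR adjusted p = 0.00528) and of miR-222 and miR-221 (-1.25, edgeR adjusted p = 0.00571) fell by similar amounts. Larger losses were those of miR-103 and miR-107 (4834 and 4735 against 358 and 584 CPM, -3.35, SE 0.54, edgeR adjusted p = 7.18e-04) and of miR-18b and miR-18a (1045 and 1199 against 115 and 95.9 CPM, -3.40, SE 0.31, edgeR adjusted p = 3.94e-05). miR-298-5p went from 9473 and 9431 to 991 and 1744 CPM (-2.79, edgeR adjusted p = 1.41e-04). Each of these calls held in every alternative. The family of miR-16 and its relatives was also called lost (-0.86, edgeR adjusted p = 0.0128), but not without Ago12_KO replicate 2 (0.064) or WT replicate 1 (0.0705).

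**Figure D4:**
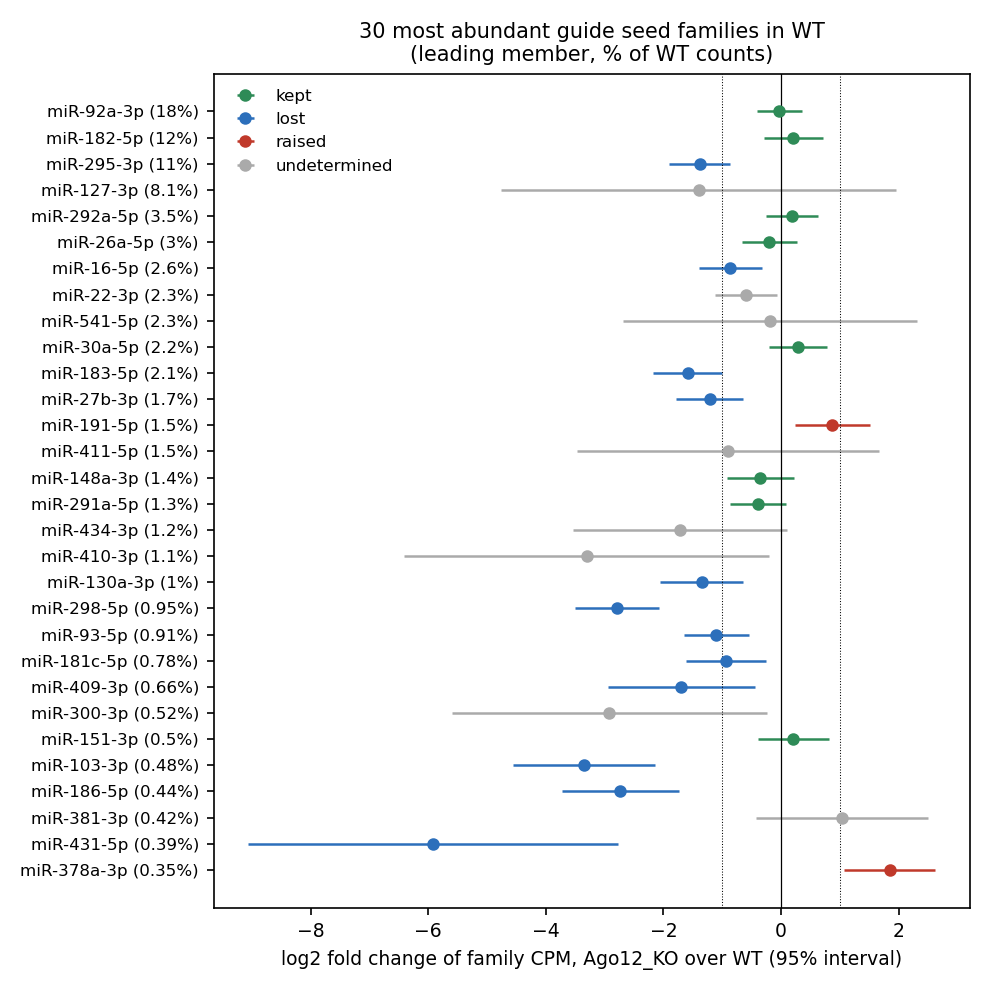
The 30 most abundant guide seed families in WT, named by their leading member with their percent of WT counts, against the log2 fold change of their summed CPM (Ago12_KO over WT). Points are estimates from the fit over all 5 groups and bars 95% intervals; colours give the status and dotted lines mark -1 and 1. The wide intervals belong to members of the Dlk1-Dio3 cluster, such as miR-127-3p.

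Raised families were of low or middle abundance in WT. miR-378a-3p went from 3785 and 3133 CPM to 9530 and 15366 CPM (1.85, edgeR adjusted p = 0.00158). The miR-21a family (2.03, edgeR adjusted p = 0.00171), miR-205-5p (3.23, edgeR adjusted p = 4.84e-05) and the family of miR-146b and miR-146a, known as immune response miRNAs (356 and 293 against 1131 and 1922 CPM, 2.23, edgeR adjusted p = 5.15e-04), rose as well. miR-299a-3p went from 285 and 254 to 3338 and 5196 CPM as a family sum (3.99, edgeR adjusted p = 1.41e-04), miR-677-5p from 48.3 and 52.5 to 484 and 567 CPM (3.37, edgeR adjusted p = 3.94e-05) and miR-1247-5p from 5.51 and 5.66 to 85.9 and 122 CPM (4.15, edgeR adjusted p = 4.11e-04). These 7 calls held in every alternative. miR-1247-5p, however, passed the filter only through its level in Ago12_KO, so its call was partly set by the filter. miR-191-5p was called raised (0.87, edgeR adjusted p = 0.0273), and the call was lost under TMM (0.11), without Ago12_KO replicate 2 (0.163), without either WT library (0.105 and 0.110) and without either Dgcr8_KO library (0.0551 and 0.055).

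Of the 28 families with 2 or more tested members, 6 had members called in both directions, 4 had every tested member called the same way, 9 had some members called in 1 direction and others not called, and 9 had none called. The 6 include the miR-295 family, through miR-302d-3p, which passed the filter only through Ago12_KO. The families described next were chosen after their values were seen. In the kept miR-92a family, miR-363-3p fell from 5118 and 6089 CPM to 335 and 388 CPM (-3.96, SE 0.34, edgeR adjusted p = 1.18e-05) and miR-32-5p from 74.2 and 54.02 CPM to 11.5 and 0 CPM (-3.21, edgeR adjusted p = 0.00677, and -2.47 without Ago12_KO replicate 2; without replicate 1 the remaining library has 0 counts, and the fitted -8.27 depends on the prior count). miR-25-3p, at 10236 and 10049 against 8843 and 7437 CPM, was not called (-0.32, edgeR adjusted p = 0.417), although TMM called it lower (-0.96, 0.0413). miR-92b-3p was called higher (5403 and 6078 against 9670 and 11861 CPM, 0.91, edgeR adjusted p = 0.0112). That call was lost under TMM (0.426), under DESeq2 size factors (0.057), without Ago12_KO replicate 2 (0.0664) and without either WT library (0.0985 and 0.0557). The family sum stayed level because miR-92a-3p made up most of it.

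The miR-181 family, miRNAs studied mainly in lymphocytes, had members called in both directions. miR-181c-5p fell from 5467 and 5067 CPM to 1105 and 1303 CPM (-2.13, SE 0.32, edgeR adjusted p = 2.44e-04) and miR-181d-5p from 2540 and 2500.2 to 1148 and 1164 CPM (-1.12, edgeR adjusted p = 0.0215, lost without any of the 4 libraries, 0.056 to 0.103). miR-181a-5p rose from 23.8 and 11.3 CPM to 1071 and 1874 CPM (6.36, SE 0.61, edgeR adjusted p = 1.37e-05; 6.98 with WT replicate 1 left out) and miR-181b-5p from 48.3 and 37.04 to 238 and 301 CPM (2.64, edgeR adjusted p = 8.99e-04). In Ago12_KO replicate 2 miR-181a-5p was thus the most abundant of the 4, having been the least abundant in both WT libraries. In Ago12_KO replicate 1 it stood slightly below miR-181d-5p and miR-181c-5p. The Nanos3 intron that gives miR-181c and miR-181d and the loci that give miR-181a and miR-181b are separate genes. The family sum was called lost (-0.94, edgeR adjusted p = 0.0273), but not without Ago12_KO replicate 1 (0.127), either WT library (0.120 and 0.090) or either Dgcr8_KO library (0.062 and 0.0629).

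The miR-17 seed family, whose members come from 3 related clusters, was lost as a sum (8900 and 9227 against 4214 and 4246 CPM, -1.10, edgeR adjusted p = 0.00404). miR-106b-5p (-2.96, edgeR adjusted p = 5.57e-05), miR-106a-5p (-2.15, edgeR adjusted p = 5.30e-04) and miR-17-5p (-1.82, edgeR adjusted p = 4.59e-04) fell. miR-93-5p fell by 1.03 (edgeR adjusted p = 0.00686, and 0.0589 and 0.0586 without either WT library). miR-20a-5p, at 764 and 864 against 890.3 and 889 CPM, was not called (0.13, edgeR adjusted p = 0.711), nor was miR-20b-5p (-0.61, 0.125), which was called lower under TMM (0.00555) and DESeq2 size factors (0.0474). Over the 26 tested entries of these clusters, 8 of 13 guides were lower and none higher, beside 32.7% and 20.8% of all tested guides. Of the 13 passengers 5 were higher and 4 lower, beside 48.3% and 13.6% of all tested passengers. Without WT replicate 2 the clusters had 8 lower entries in place of 12.

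In the miR-15/16 seed family, miR-16-5p (25557 and 23631 against 14975 and 10967 CPM, -0.92, edgeR adjusted p = 0.0104), miR-15b-5p (-1.07, 0.0124) and miR-15a-5p (-0.99, 0.0396) were lower, and miR-195a-5p (1.11, 0.012) and miR-322-5p (1.48, edgeR adjusted p = 0.00331) higher. Without WT replicate 1 all 5 calls were lost (edgeR adjusted p = 0.0648, 0.0873, 0.149, 0.0905 and 0.0503 in that order). Without Ago12_KO replicate 2 those of miR-16-5p (0.078) and miR-15a-5p (0.117) were lost, and without WT replicate 2 those of miR-15b-5p (0.0817), miR-15a-5p (0.171) and miR-195a-5p (0.117). TMM ended the calls of miR-195a-5p (0.232) and miR-322-5p (0.0602). In the family of miR-200b, kept as a sum (0.27, interval -0.45 to 0.98), miR-429-3p fell from 417 and 461 to 88.7 and 78.5 CPM (-2.38, edgeR adjusted p = 2.09e-04). miR-200c-3p rose from 58.5 and 86.9 to 261 and 253 CPM (1.82, edgeR adjusted p = 0.00137), and miR-200b-3p was not called (0.56, 0.149).

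**Figure D5:**
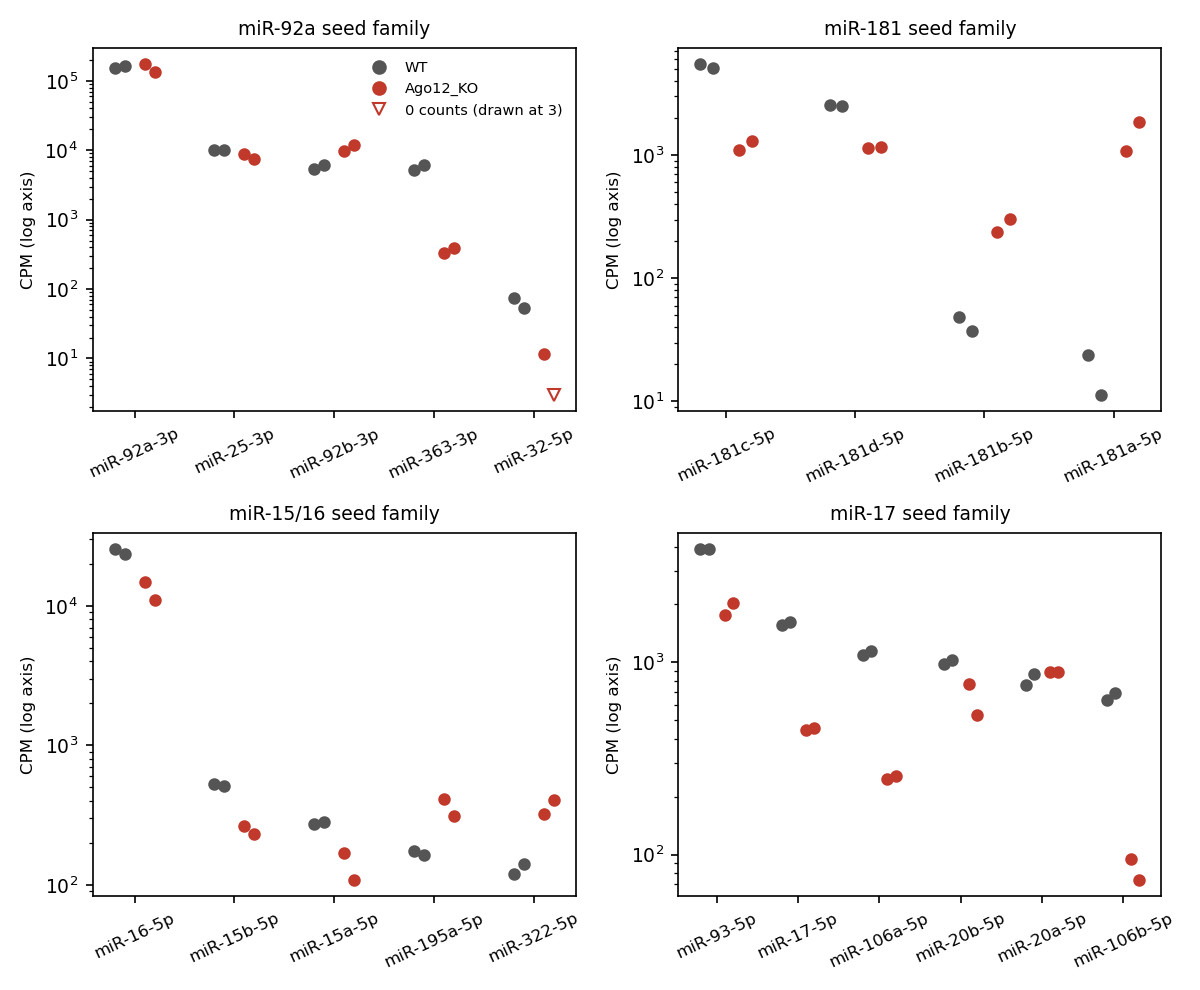
CPM on a log axis for the members of 4 seed families, with a point per library (WT grey, Ago12_KO red) and an open triangle for a library with 0 counts. miR-181c-5p and miR-181d-5p are lower and miR-181a-5p and miR-181b-5p higher in both Ago12_KO libraries, and miR-363-3p is far lower while miR-92a-3p overlaps.

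The guides with the lowest values in Ago12_KO came from different hairpins. miR-6944-3p had 906 and 982 counts in WT and 0 in both Ago12_KO libraries, at least 85.8-fold lower against a floor of 3 counts over the group. miR-380-3p fell from 1012 and 1124 CPM to 8.59 and 13.1 CPM (-6.65, edgeR adjusted p = 5.95e-05), miR-421-3p from 718 and 698 to 8.59 and 8.72 CPM (-6.32, edgeR adjusted p = 1.18e-05) and miR-301a-3p from 2436 and 2380.3 to 34.4 and 65.4 CPM (-5.63, edgeR adjusted p = 2.77e-06). miR-301a-3p shares its seed with miR-130a-3p, whose family fell by 1.35. Among the highest, miR-146a-5p went from 5.09 and 2.06 CPM to 166 and 344 CPM (6.02, edgeR adjusted p = 1.88e-05; 6.73 with WT replicate 1 left out). miR-6539, an entry with no arm in its name, went from 557 and 582 CPM to 38029 and 51577 CPM (6.30, SE 0.31, edgeR adjusted p = 1.99e-07). It had 3843 and 3053 counts in Dicer_KO (totals 45222 and 37476) and 1276 and 960 in Drosha_KO (totals 39511 and 40306). In Dgcr8_KO it had 3037 and 4405 (totals 289539 and 408654). Its share was thus above WT in every mutant and highest in Dicer_KO, so this rise is not particular to Ago12_KO.

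Clusters and families of known loci were listed for reading the calls by origin, and their counts stand beside 28.7% of all tested entries called higher and 25.8% called lower. A count near these shares, such as those of the let-7 family and of the cluster of miR-183, miR-96 and miR-182, says nothing particular of the list. The Dlk1-Dio3 cluster, a large imprinted cluster on chromosome 12, had 39 of 63 tested entries lower and 4 higher (median -1.72, against -0.02 over all entries), and its share of the counts went from 19.1% and 19.03% to 8.08% and 10.5%. miR-127-3p, its most abundant member, stood at 81585 and 79577 CPM in WT and 30374 and 30684 CPM in Ago12_KO. The groups were far apart but it was not called (-1.40, SE 1.38, edgeR adjusted p = 0.405), since the spread comes from all 5 groups, and it was called when WT and Ago12_KO alone were fitted (SE 0.14, edgeR adjusted p = 6.25e-04) and without either Drosha_KO library (6.79e-05 and 2.30e-05). That fit called 52 members lower and 6 higher, and the fit over all groups called 27 lower without WT replicate 1 and 26 without WT replicate 2. By contrast miR-299a-3p, of the same cluster, was among the guides that rose.

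The Sfmbt2 cluster, a rodent-specific array of near-identical hairpins in an intron of Sfmbt2, had 20 of 44 tested entries higher and none lower (median 1.13, 14 higher under TMM, which called 109 of all 481 higher, and 13 without Ago12_KO replicate 1). miR-669a-3p rose from 1791 and 939 to 4629 and 5418 CPM (1.88, edgeR adjusted p = 0.00139). Reads of these copies can match several entries, and how they were shared out is not given in the sources used here, so single members are uncertain. Mirtrons, spliced introns that enter the pathway at Dicer, had 6 of 7 tested entries lower and none higher, among them miR-702-3p (83.6 and 102 against 0 and 4.36 CPM, -5.56, edgeR adjusted p = 1.25e-04, and -4.35 without Ago12_KO replicate 1; without replicate 2 the remaining library has 0 counts, and the fitted -8.83 depends on the prior count). Without Ago12_KO replicate 1 or WT replicate 2 there were 4 such calls. Of 5 tested entries of hairpins reported to bypass Drosha, 3 were higher and 1 lower, counts that were 1 and 0 without Ago12_KO replicate 1, 1 and 1 without WT replicate 1 and 2 and 0 without WT replicate 2. The let-7 and miR-98 family, the miRNAs of differentiated cells, had 2 of 10 tested entries higher and none lower (TMM gave 2 and 3, leaving out Ago12_KO replicate 1 gave 3 and 2), and no let-7 guide was called. Of the miR-302 and miR-367 cluster 2 of 2 tested entries were higher, but 10 are listed, and miR-302d-3p passed the filter only through Ago12_KO. With no filter on low counts 4 of 8 were higher and none lower. Of the cluster of miR-183, miR-96 and miR-182 2 of 6 were higher and 1 lower, and of the miR-200 and miR-141 family 4 of 8 were higher and 1 lower. The miR-15/16 family with its passengers had 7 of 12 higher and 3 lower, with fewer calls when either WT library or Ago12_KO replicate 2 was left out. miR-451a, which in vertebrates is cut by Ago2 and not by Dicer, had 4 and 5 counts in WT and 0 in both Ago12_KO libraries, and at these depths no difference was detectable.

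Entries that may be fragments of other RNAs also took a larger share, 0.481% and 0.368% of the counts in WT and 1.71% and 2.07% in Ago12_KO. In Dgcr8_KO this share was 5.11% and 4.99%, in Drosha_KO 6.68% and 5.41% and in Dicer_KO 48.8% and 47.3%. The rise over WT is thus not particular to Ago12_KO. The counts of the lists that follow stand beside the same 28.7% higher and 25.8% lower over all entries, and most lists are small. Of 6 tested snoRNA-derived entries 4 were higher and none lower, led by miR-3535 (93.3 and 81.8 against 1360 and 1726 CPM, 4.13, edgeR adjusted p = 1.18e-05). Of 6 entries reported to overlap tRNA or rRNA 4 were higher and 1, miR-1983, lower (515 and 629 against 31.5 and 26.2 CPM, -4.29). Lists of miRNAs that mark other cell types moved both ways. Of 11 tested fibroblast or feeder markers 5 were higher and 1 lower (TMM gave 5 and 6, leaving out Ago12_KO replicate 1 gave 6 and 3 and leaving out replicate 2 gave 5 and 2), with the summed share at 4.63% and 4.41% in WT and 3.79% and 4.24% in Ago12_KO. Of 5 blood markers 4 were higher and 1 lower, the sum going from 0.182% and 0.142% to 0.882% and 1.14%, with miR-142a-5p at 579 and 250.02 against 5250.3 and 4647 CPM (3.58, edgeR adjusted p = 1.47e-04; 4.31 with WT replicate 1 left out). Of 3 liver, gut and endoderm markers 2 were higher, miR-192-5p and miR-375-3p (2.71 and 3.05), and 1 lower, of 6 neural markers 1 was higher and 4 lower, and of 2 muscle markers 1 was higher. The summed shares of the last 3 lists were 0.162% and 0.156% in WT against 0.683% and 1.17% in Ago12_KO, 0.319% and 0.349% against 0.163% and 0.133%, and 0.00301% and 0.00242% against 0.00601% and 0.0061%. The part of other cells or of RNA quality in these results was not tested.

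Fold changes were also described by first base and by arm, which the classes did not use, and strands called higher occurred with every first base and on both arms. Among tested passengers with a sequence, the 35 that begin with C had a median log2 fold change of 2.42 with 23 higher and 4 lower, against medians of 0.65 for the 40 with A (18 higher, 6 lower), 0.41 for the 18 with G (8 and 3) and 0.18 for the 27 with U (6 and 6). Among guides the medians were -1.13 for A (59), -0.76 for C (46), -0.13 for G (21) and -0.57 for U (133). Passengers on the 3p arm had a median of 1.41 (68 entries) and those on the 5p arm 0.21 (52), guides on the 3p arm -1.18 (121) and those on the 5p arm -0.57 (111). These are descriptions with no test, and the tested passengers include those that passed the filter through their level in Ago12_KO.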

How the data were processed

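Small RNA reads were counted per mature miRNA entry by the submitters, and the authors deposited raw counts in a table of 10 libraries. Per the submitters' processing notes the tools include Bowtie and the build is mm10. Tool versions, the miRNA annotation release and the rule for reads that match several entries were not given in the sources used here. Library totals ran from 37476 to 2357868 counts, and 1 count was worth 0.424 to 26.7 CPM, which limits low entries in the shallow libraries.

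CPM were taken on column totals. Entries were tested with edgeR 4.0.16 (glmQLFit and glmQLFTest, all 5 groups, 10 libraries, filterByExpr by group with a minimum count of 10, no TMM, Benjamini-Hochberg adjustment, calls at adjusted p under 0.05), and so were sums of guides by seed (bases 2 to 8). The minimum count of this filter applies to a library of median size and scales with depth. Arm ratios (pseudocount 0.5, mean of at least 20 CPM per arm) were tested with limma 3.58.1 on WT and Ago12_KO alone. R 4.3.3, DESeq2 1.42.0, python 3.11.15 and scipy 1.17.1 were used, and the fits were tested on simulated data. Major arms were set from WT counts, which the ratio test also uses, so that choice was tried on WT replicate 1 alone.

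The members and lists were chosen with earlier results of these data known. Named items follow a rule: the 12 seed families with the highest WT share, up to 8 called families, hairpins and entries of each class with the largest changes in each direction (for families and entries, only those averaging 50 CPM or more), up to 4 abundant entries of each list, miR-451a, and the members of named families. The text prints a subset, and the other named items, among them the arms of named hairpins, miR-22, miR-363 and the other hairpins whose calls held in all alternatives, were chosen after their values were seen. Alternatives covered scaling, filters, DESeq2, the groups fitted, the replicate block and leaving out each library. Those without miR-92a-1-5p, with both strands summed by seed and with copy-specific arms paired were chosen after seeing the data.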

Additional observations from a re-analysis of the deposited data

How the results depend on the processing

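No called entry, family or hairpin among those named changed direction in any alternative. Medians and splits near 0 did: the median over entries, -0.02, was 0.06 without WT replicate 1 and 0.08 with miR-92a-1-5p out of the totals, entries called were 109 higher and 179 lower under TMM against 138 and 124, and the median over families, -0.37, was 0.09 with both strands summed by seed. The medians of the let-7 and fibroblast lists (-0.13 and -0.54) were above 0 in most alternatives, and that of the cluster of miR-183, miR-96 and miR-182 (0.22) was below 0 under TMM and DESeq2. Leaving out 1 library at a time gave 115 to 163 entries called higher and 86 to 146 lower, 39 to 61 and 67 to 109 major arms, 42 to 61 and 12 to 24 minor arms (12 without WT replicate 2), 44 to 69 and 61 to 102 seed families, and 1 to 15 hairpins toward the major arm and 8 to 79 toward the minor arm. For the hairpins the extremes were 8 and 1 without WT replicate 2, 21 and 3 without WT replicate 1, and 15 and 14 toward the major arm without Ago12_KO replicate 1 and 2. The difference in minor-arm share lay between 4.40 and 6.31 points, and was 10.4 with copy-specific arms. Minor arms called lower were 31 under TMM and 31 with no filter, against 20. Hairpins called toward the minor arm were 45 with at least 100 CPM per arm, 120 with no minimum and 43 with all 5 groups in the fit, against 70. With the major arm set in WT replicate 1 and compared with WT replicate 2, the median change was -1.52 over 117 hairpins. Leaving out WT replicate 1 without changing the choice of arm gave the same median over the same number of hairpins. Families raised were 119 with both strands summed by seed, against 55. Under the replicate block 135 entries were higher and 120 lower, and 6 hairpins moved toward the major and 55 toward the minor arm; same-numbered libraries did not deviate together (correlation 0.013 over 481 entries), so the numbers do not pair them. The cause of these shifts was not tested. Depth in Ago12_KO, where 3 counts are 8.59 and 13.1 CPM, limits what can be seen of rare strands.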
